A study of Rattus norvegicus with 32 samples.

Results

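The endocannabinoid system genes described here were Cnr1, Dagla, Daglb, Mgll, Faah and Napepld, 6 of the 28914 gene names counted in the RNA-seq libraries of a study of methamphetamine (METH) in the rat brain. They were taken by name from the count files, and all 32 libraries were used. RNA came from adult male Sprague-Dawley rats, with 4 saline and 4 METH libraries for each of 4 brain regions. These were the nucleus accumbens (NAc) of the ventral striatum, the subventricular zone (SVZ) beside the lateral ventricle and, within the hippocampus, the dentate gyrus (DG) and the Ammon's horn fields (CA). METH rats received 10 mg/kg in each of 4 intraperitoneal injections 2 h apart, a binge regimen, and control rats received saline at 1 mL/kg on the same schedule. Tissue was taken the day after the last injection. Each brain was cut into a front part, from which the NAc and SVZ were punched, and a rear part with the hippocampus, so libraries of different regions may come from the same rats. The fits across regions treated all libraries as independent. No group carried a transgene or deletion. The comparison of METH with saline asks which transcripts of a region differ after the binge, and the comparison of regions asks how the system is distributed.

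Endocannabinoids are lipid messengers that neurons make on demand from membrane lipids and that travel backwards across the synapse to the presynaptic terminal. There they bind the cannabinoid receptor CB1, encoded by Cnr1, which couples to inhibitory G proteins and reduces transmitter release. The main messenger in brain, 2-arachidonoylglycerol (2-AG), is made by the diacylglycerol lipases Dagla and Daglb and broken down mainly by monoacylglycerol lipase, Mgll. The other, anandamide, can be made by the phospholipase D encoded by Napepld and is broken down by fatty acid amide hydrolase, Faah. In the striatum and hippocampus this system is known for setting the strength of excitatory and inhibitory inputs.

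The libraries held 11094002 to 21869773 counted reads. Levels are given as CPM, counts scaled to 1000000 reads on upper-quartile library sizes, or per kb of annotated exon (RPKM) where genes are compared with each other. On this scale 1 read was worth 0.0460 to 0.0940 CPM. In bulk tissue, fewer cells of a type and less RNA per cell cannot be told apart. Marker genes of brain cell types set some libraries apart from others of their label. DG saline replicate 3 had 9.60 CPM of the 5 pallial glutamatergic markers against 1400.2 to 2252 CPM in the other DG libraries, and 1359 CPM of the 6 striatal medium spiny neuron markers. NAc METH replicate 3 had 109 CPM of those striatal markers against 1137 to 6298 CPM in the other NAc libraries. SVZ saline replicate 1 and SVZ METH replicates 2, 3 and 4 had 432 to 1506 CPM of the 3 thalamic neuron markers, against 25.4 to 209.7 CPM in the other 28 libraries. The 4 choroid plexus markers summed to 7958 CPM in SVZ METH replicate 3 and 5927 CPM in DG METH replicate 3. They summed to 2070 CPM in CA saline replicate 2 and 1975 CPM in DG saline replicate 4, against group medians of 4.32 to 90.1 CPM. Of these 4, only SVZ METH replicate 3 is among the 6 libraries with unlike markers left out of some fits below. The rest stayed in. Of the 4 ependymal markers, 3 were measured, and their sum ran from 7.91 to 71.4 CPM in SVZ libraries and from 4.17 to 19.4 CPM in NAc libraries, so this check did not separate the SVZ from the NAc. The 5 dentate granule markers summed to 49.0 to 459.6 CPM in DG and 62.3 to 446 CPM in CA libraries. The 5 CA pyramidal markers summed to 104 to 553 CPM in DG and 329.7 to 495 CPM in CA libraries. Neither list separated the DG from the CA. Library numbers in the file headers recur across the NAc, DG and CA, where the same 8 numbers appear, and go against the labels in the DG. Saline replicates 1 and 2 there carried numbers borne by METH libraries in the NAc and CA, and METH replicates 1 and 2 carried numbers borne by saline libraries. In the SVZ, the 4 METH libraries carried 2 numbers, each borne by 2 of them. The labels were followed. The METH values of Cnr1 and Dagla in the DG, and some region tests, are also given without DG replicates 1 and 2 of both treatments. The other DG values rest on these libraries. A sequencing run below is a name in the file headers, which do not state that it is a run. CA saline replicates 1 and 2 carried the word merged there and were given a level of their own.

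Of the 6 members, 5 passed the filter on low counts in every fit, with at least 10 reads in every library, and Faah passed in none. Per length, the breakdown enzyme Mgll and the receptor Cnr1 were the most abundant. Mgll averaged 52.2 ± 14.9 RPKM (SD, n = 32), with a range of 24.9 to 86.8 RPKM. It ranked first in 21 libraries and Cnr1 in the other 11. Cnr1 averaged 45.6 ± 30.9 RPKM and ranged from 7.52 to 166 RPKM, a 22.0-fold range that was the widest of the 5. Dagla averaged 30.4 ± 13.2 RPKM and was the third in rank in 25 libraries. Daglb, at 9.42 ± 1.52 RPKM, had the narrowest range, 1.90-fold. Napepld averaged 8.29 ± 6.20 RPKM and ranked last in 27 libraries. The per-length ratio of Dagla to Daglb was above 1 in every library, with a median of 2.94 and a range of 1.53 to 6.42. The ratio of the synthesis enzyme Dagla to the breakdown enzyme Mgll was below 1 in every library, with a median of 0.558 and a range of 0.286 to 0.987.

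**Figure D1:**
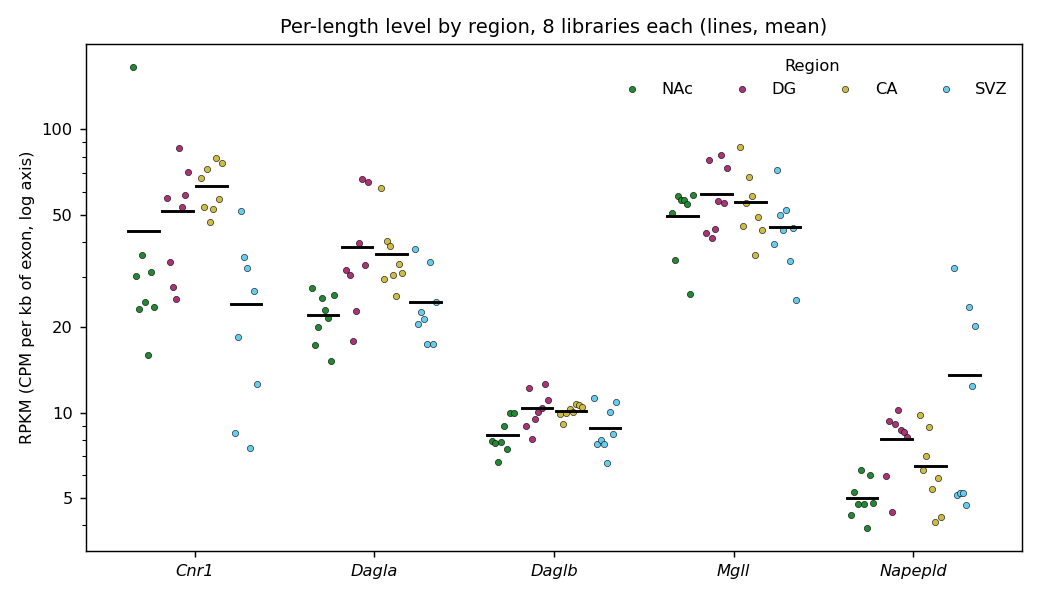
Per-length level (RPKM, log axis) of the 5 measured members in the 4 regions; each point is 1 library (8 per region, saline and METH together) and each line the mean. Mgll and Cnr1 lie highest, Daglb varies least, and Napepld has 4 SVZ libraries above all others.

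The sixth member, Faah, gave 5 reads in all 32 libraries together, 1 read in each of 5 libraries. A count of 3 reads, the limit that a count of 0 allows, corresponds to 0.138 to 0.282 CPM in these libraries, for counting error only. Its 15 exons lie on the minus strand of chromosome 5, at 134331929 to 134348995 in the rn6 build. The same annotation holds a second gene on that strand, LOC100911581, at 134852875 to 134871775, also with 15 exons. In order, 13 of the 15 exons have equal lengths in both genes. LOC100911581 gave 86 reads in 24 libraries, at most 0.518 CPM in any of them. The newer RefSeq set for GRCr8 lists 1 Faah gene, under gene ID 100911581. Reads with a mapping quality under 10 were dropped in the counting, and the part of this step in the low Faah count was not tested. Faah was therefore not compared between groups.

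The other members lie on 4 chromosomes of rn6, and none of their annotated exons overlaps those of another gene. Cnr1 is on chromosome 5 (49311030 to 49333056, plus strand), Dagla on chromosome 1 (226297016 to 226353611, minus strand) and Daglb on chromosome 12 (13113237 to 13157666, minus strand). Mgll (120671489 to 120771088) and Napepld (9966891 to 10002247) are both on the plus strand of chromosome 4. RefSeq promoter windows of the GRCr8 build were matched for 4 of the 6 members by symbol. The 250 bases before the start site are shown for Napepld and Daglb, the most and least variable of the tested members with a window. Napepld lies at chr4:14253010-14253259 on the plus strand and Daglb at chr12:16215759-16216008 on the minus strand. Capitals mark matches on either strand to any of 3 motifs, with no overlaps between matches in these windows. The first is GGGCGG, the core of the box bound by Sp1. The second is TATAAA, the box bound by the TATA-binding protein. The last is TGACGT, part of the cAMP response element.
Napepld: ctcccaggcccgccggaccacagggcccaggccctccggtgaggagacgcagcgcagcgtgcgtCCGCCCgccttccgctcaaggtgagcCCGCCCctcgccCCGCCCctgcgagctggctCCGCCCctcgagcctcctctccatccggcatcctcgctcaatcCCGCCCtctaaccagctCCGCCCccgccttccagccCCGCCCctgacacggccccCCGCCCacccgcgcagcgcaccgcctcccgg
Daglb: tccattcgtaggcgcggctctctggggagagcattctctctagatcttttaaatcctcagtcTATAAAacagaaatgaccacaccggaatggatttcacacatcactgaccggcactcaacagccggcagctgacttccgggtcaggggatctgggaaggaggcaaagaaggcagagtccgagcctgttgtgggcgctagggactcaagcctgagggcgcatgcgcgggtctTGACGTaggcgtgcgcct
The Napepld window held 8 matches to GGGCGG and none to the other letters, and its GC content was 77.2%, against a median of 51.2% over 33469 promoters. The Daglb window held 1 match to TATAAA and 1 to TGACGT, with a GC content of 56.4%. Of all windows of this length, 30.5% held GGGCGG, 12.9% held TATAAA and 6.95% held TGACGT. The windows of Mgll and Faah had 72.4% and 70.4% GC. A match is a description of the letters only.

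No member passed the test for METH in any region. The test was edgeR's quasi-likelihood test on the counts, and a call needed more than 1.5-fold change and, after Benjamini-Hochberg adjustment over all genes, a false discovery rate (FDR) under 0.01. It called 0% of all genes in each region as well, of 14771 tested in the NAc, 14800 in the DG, 14612 in the CA and 15579 in the SVZ. DESeq2 called 3, 183, 10 and 2 genes in the same order, none of them a member. At an unadjusted p under 0.05, 2 of the 5 tested members stood out in the NAc, 2 in the DG, 2 in the CA and 0 in the SVZ, where 3.39%, 12.8%, 7.16% and 2.58% of all genes did. The median log2 fold change of the 5 members came to −0.06 for the NAc and 0.36 for the DG, where the median of all genes was 0.03 and −0.01. For the CA and SVZ it came to −0.45 and −0.13, with 0.01 and 0.02 over all genes. In the DG all 5 members had a log2 fold change above 0. The METH libraries there also had lower means of all 6 striatal markers, whose sum was 1359 CPM in saline replicate 3 and 140 to 246 CPM in the other saline libraries. Means of all 5 astrocyte markers were higher, with sums of 2602 to 2727 CPM against 1841 to 2177 CPM in saline. Means were also higher for all 5 microglia, all 4 choroid plexus and 5 of 6 oligodendrocyte markers, and lower for 6 of 7 interneuron markers. The part of the markers in the members' values was not tested. In the CA 3 lay below 0 and 2 above. Averaged over the 4 regions in 1 fit of 32 libraries, 0 members were called and 1, Daglb, had an unadjusted p under 0.05, as did 7.83% of all genes (DESeq2 called 1 gene, no member). The difference of the METH effect among the regions was called for 0 of the 5 members and 0% of 16122 genes. Its unadjusted p was under 0.05 for Dagla and Cnr1, 2 of 5 members, against 7.74% of genes.

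**Figure D2:**
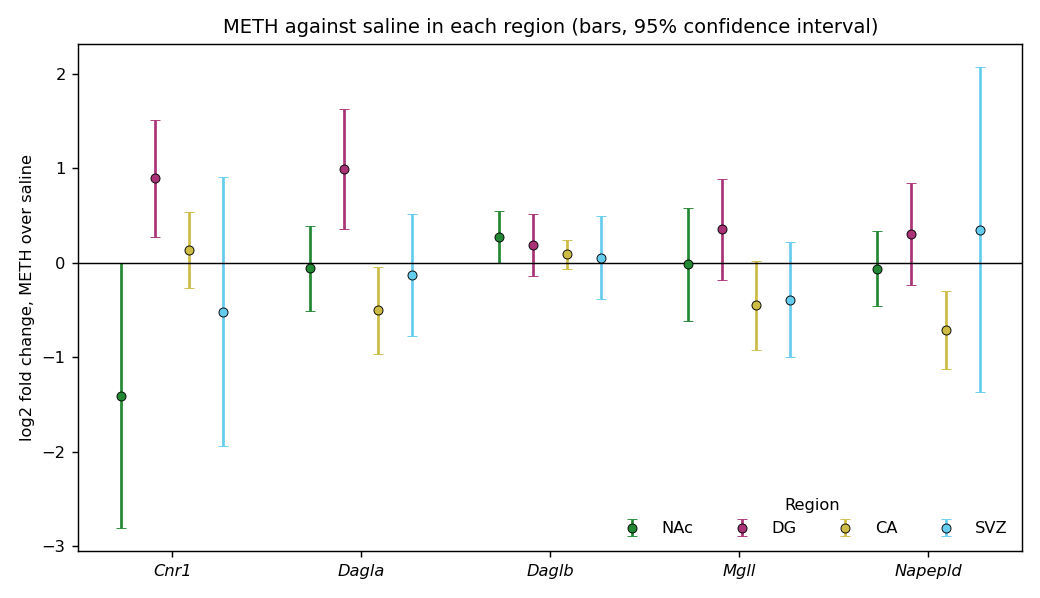
Log2 fold change of METH over saline with its 95% confidence interval for the 5 tested members in the NAc, DG, CA and SVZ, from edgeR fits of 8 libraries per region. The intervals of Cnr1 and Dagla in the DG lie above 0, those of Dagla and Napepld in the CA and of Cnr1 in the NAc lie below 0, and that of Daglb in the NAc lies just above 0. None passed adjustment over all genes.

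The receptor gene Cnr1 had a log2 fold change above 0 in the DG and below 0 in the NAc, neither past the adjusted threshold. In the DG, the saline libraries (replicates 1 to 4) read 312, 185, 152 and 138 CPM and the METH libraries 469, 289, 319 and 385 CPM. Only the METH replicate at 289 CPM fell inside the saline range. The means were 197 ± 79.4 and 366 ± 79.6 CPM (SD, n = 4 each). The log2 fold change was 0.89 (SE 0.27), with an edgeR unadjusted p of 0.0102 and an FDR of 0.261. With 4 factors of unwanted variation in the model (RUVr), the FDR was 0.00946 and the change was called, as were 0.845% of all genes. Without DG saline replicate 3, the library with striatal markers, the log2 fold change was 0.79. Without replicates 1 and 2 of both treatments, which leaves 2 libraries a group, it was 1.27 (FDR 0.692). That fit keeps saline replicate 3, with its striatal markers. It also keeps saline replicate 4 and METH replicate 3, which had 1975 and 5927 CPM of choroid plexus markers. Within the sequencing run that held both treatments, METH replicates 1 and 2 averaged 379 CPM and the 1 saline library, replicate 3, had 152 CPM. Those METH libraries carried numbers that go against their labels, and that saline library is the one with striatal markers.

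In the NAc, Cnr1 read 906, 166, 126 and 197 CPM in saline and 134, 87.2, 171 and 129 CPM in METH. The 906 CPM of saline replicate 1 was the highest Cnr1 value of all 32 libraries, and the other 7 libraries overlapped between the groups. The means were 349 ± 373 and 130.4 ± 34.5 CPM (SD, n = 4 each), a log2 fold change of −1.40 (SE 0.62, unadjusted p = 0.0496, FDR 0.999). Without that library the log2 fold change was −0.31 (FDR 0.9998). The striatal marker sum of the same library was 6298 CPM, the highest of all, against 1137 to 2689.6 CPM in the other 3 saline NAc libraries. All 6 striatal markers had lower means in METH than in saline NAc libraries, while the median of their sum was 2008 CPM in saline and 2293 CPM in METH. The part of the markers in the Cnr1 level was not tested. DESeq2 gave no p for Cnr1 in this region. In the 1 run that held both treatments, 2 METH libraries averaged 111 CPM and 2 saline libraries 162 CPM.

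In the SVZ, Cnr1 ran from 46.2 to 281 CPM in saline and from 41.1 to 177 CPM in METH, and the groups overlapped, with a log2 fold change of −0.52 (SE 0.62, FDR 0.979). The 3 SVZ libraries lowest in Cnr1, at 41.1, 46.2 and 68.8 CPM, were the 3 lowest in striatal markers, at 138, 199.9 and 492 CPM. The highest, saline replicate 3, was also highest in those markers, at 4347 CPM. The CA had the evenest Cnr1 level, with saline libraries at 369, 291, 397 and 257 CPM and METH libraries at 286, 431, 310.0 and 417 CPM. There the log2 fold change was 0.13 (SE 0.18, FDR 0.867), with a 95% interval of −0.27 to 0.54.

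Across regions, with both treatments together, Cnr1 had its highest mean in the CA and its lowest in the SVZ. The order of mean levels over 8 libraries was CA (345 ± 66.8 CPM, SD), DG (281 ± 116), NAc (239.6 ± 271) and SVZ (132 ± 83.6). The test over the 4 regions called 2 of the 5 members, Dagla and Napepld, at an FDR under 0.01, where 28.8% of all 16122 genes were called. For Cnr1 its FDR was 0.0185. Cnr1 was called without NAc saline replicate 1 (FDR 0.000869) or without SVZ saline replicate 3 (FDR 0.00857). The other 30 of the 32 fits that left out 1 library did not call it (FDR up to 0.0401). The share of all genes called in such fits is not given here. With replicate number as a block Cnr1 was called as well (FDR 0.00984), where 26.7% of all genes were called. That block joins saline and METH libraries of the same number, from different rats, so it does not model rats shared between regions. Of 9 alternatives other than leaving out 1 library, the block among them, 4 called Cnr1, and its FDR ran up to 0.220. Of the 6 region pairs, each called at an FDR under 0.01 and over 2-fold, only CA over SVZ was called for Cnr1, at a log2 difference of 1.41 (SE 0.37, FDR 0.00377). That pair was called for 9% of genes, with a median over all genes of −0.10. Leaving out the 6 libraries with unlike markers, which leaves 3 saline and 1 METH library of the SVZ, the difference was 0.90 (FDR 0.145). Neighbours in the order did not differ past the threshold. DG minus CA was −0.36 on the log2 scale (FDR 0.775), NAc minus DG was −0.33 (FDR 0.594) and NAc minus SVZ was 0.72 (FDR 0.172). The other pairs were called for 2.88% (NAc and DG), 5.14% (NAc and CA), 1.33% (NAc and SVZ), 0% (DG and CA) and 4.31% (DG and SVZ) of genes. In saline libraries alone Cnr1 was not called over the 4 regions (FDR 0.388), where 0% of genes were called. CA minus SVZ was 1.08 there (FDR 0.235), not called, where 126 of 15515 genes were called. The saline mean was higher in the NAc, at 349 CPM, than in the CA, at 328 CPM. All SVZ libraries carried a header name of their own, so region and run cannot be told apart for the SVZ.

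**Figure D3:**
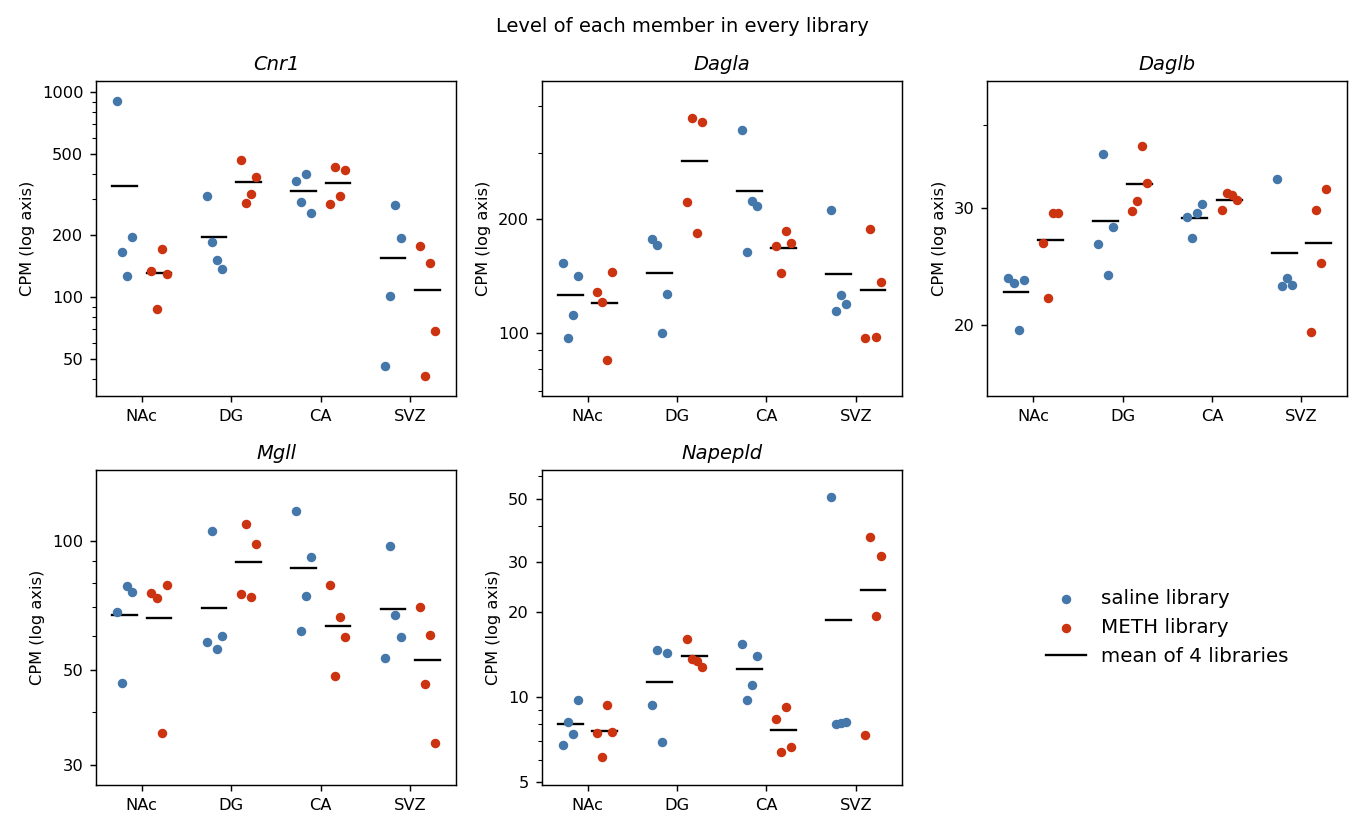
CPM (log axes) of Cnr1, Dagla, Daglb, Mgll and Napepld in each saline (blue) and METH (red) library of the 4 regions, with the mean of 4 libraries as a line. Dagla in the DG and Napepld in the CA are the 2 cases in which the treatments do not overlap, and NAc saline replicate 1 stands alone at 906 CPM of Cnr1.

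Of the 2-AG synthesis genes, Dagla encodes the lipase known to supply most 2-AG at adult synapses. In the DG it read 177, 171, 99.7 and 127 CPM in saline and 222, 372, 184 and 362 CPM in METH. All METH libraries lay above all saline libraries. Such a separation was found for 3.92% of 14927 DG genes. The means were 144 ± 36.7 and 285 ± 96.0 CPM (SD, n = 4 each), and the log2 fold change was 0.99 (SE 0.28, unadjusted p = 0.00663, FDR 0.222). DESeq2 gave an FDR of 0.0384. Without DG saline replicate 3 the log2 fold change was 0.85 (FDR 0.252), and without replicates 1 and 2 of both treatments 1.26 (FDR 0.731). The latter fit keeps saline replicate 3, the library with striatal markers, as 1 of 2 saline libraries.

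In the CA the Dagla values ran the other way. Saline libraries read 345, 164, 224 and 216 CPM and METH libraries 170.3, 144, 186 and 173 CPM. The groups overlapped through the saline library at 164 CPM, and the log2 fold change was −0.50 (SE 0.20, unadjusted p = 0.0361, FDR 0.687). Without saline replicate 1, at 345 CPM, it was −0.26. Within the 2 runs that held both treatments, METH averaged 179 against 224 CPM in one and 157 against 216 CPM in the other, with 1 saline and 2 METH libraries each. The difference of the METH effect among the 4 regions had an unadjusted p of 0.00375 for Dagla (FDR 0.346), and with 2 RUVr factors its FDR was 0.00748, where 0.484% of genes were called. In the NAc and SVZ the log2 fold changes were −0.06 and −0.13, with 95% intervals of −0.51 to 0.39 and −0.78 to 0.52.

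Markers of hippocampal neurons were also unequal between the treatments. The sum of the 5 dentate granule markers, Prox1 among them, was 232, 49.0, 49.5 and 103 CPM in DG saline and 459.6, 398, 84.4 and 313 CPM in DG METH. In the CA it was 374, 62.3, 446 and 141 CPM in saline and 84.1, 98.6, 224 and 143 CPM in METH. Of these markers 4 of 5 had a higher mean in METH in the DG, and 4 of 5 a lower mean in METH in the CA. The 3 hippocampal libraries with Dagla above 300 CPM had marker sums of 313 to 398 CPM. CA saline replicate 3 and DG METH replicate 1 had larger sums, 446 and 459.6 CPM, with Dagla at 224 and 222 CPM. The 5 CA pyramidal markers summed to 104 to 419 CPM in DG saline and 311 to 553 CPM in DG METH, and to 343 to 495 CPM in CA saline and 329.7 to 426 CPM in CA METH. Their median sum was higher in METH in the DG (419 against 272 CPM) and lower in METH in the CA (368 against 423 CPM). Marker by marker, 3 of the 5 had a higher mean in METH in the DG and 1 a lower mean. In the CA 3 had a higher mean in METH and 2 a lower mean, so the list did not move 1 way there. The same 3 libraries with Dagla above 300 CPM had the 3 highest CA pyramidal sums of all libraries, at 495 to 553 CPM. The part of the markers in the Dagla values was not tested.

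**Figure D4:**
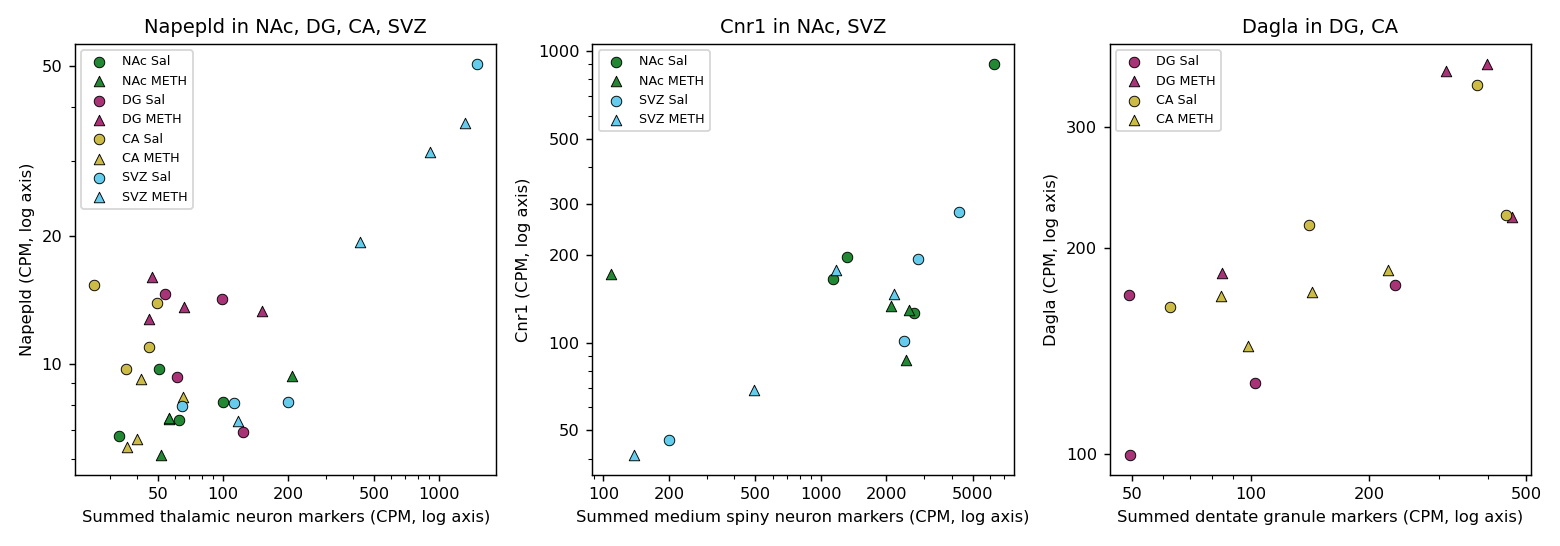
Left, Napepld against the summed thalamic neuron markers in all 32 libraries. Middle, Cnr1 against the summed medium spiny neuron markers in NAc and SVZ libraries. Right, Dagla against the summed dentate granule markers in DG and CA libraries. All axes are CPM on log scales, circles are saline and triangles METH. The 4 SVZ libraries with 432 CPM or more of thalamic markers are the 4 highest in Napepld.

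Between regions, Dagla differed past the threshold, with its highest means in the hippocampal samples. The means over 8 libraries were 214 ± 101 CPM (DG), 203 ± 63.4 (CA), 136 ± 41.9 (SVZ) and 123 ± 24.0 (NAc), each with its SD. The FDR over the 4 regions was 0.00347. NAc minus CA was −0.70 on the log2 scale (SE 0.19, FDR 0.0074) and NAc minus DG −0.72 (SE 0.19, FDR 0.0111), both under 2-fold. Without DG replicates 1 and 2 of both treatments the FDR over the regions was 0.0128. The DG and CA did not differ past the threshold, at 0.02 with a 95% interval of −0.37 to 0.40. Nor did the NAc and SVZ, at −0.15 with an interval of −0.54 to 0.24. With sequencing run as a covariate and the SVZ left out, the FDR over the other 3 regions was 0.0216. In the saline libraries alone the 4 regions had an FDR of 0.0932 for Dagla, and 0 members were called, as were 0% of 15515 genes (unadjusted p under 0.05 for 1 member and 26.7% of genes; DESeq2 called 1495 genes, no member).

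The second lipase, Daglb, is known for making 2-AG in microglia and macrophages. It was the steadiest member, at 19.5 to 37.2 CPM in all libraries. In the NAc it read 23.5, 23.1, 19.7 and 23.3 CPM in saline and 26.5, 21.9, 29.4 and 29.4 CPM in METH. In the NAc 3 of the 4 METH libraries lay above every saline library, and the log2 fold change was 0.27 (SE 0.12, unadjusted p = 0.0490, FDR 0.999). Elsewhere the log2 fold change was 0.19 (DG), 0.09 (CA) and 0.06 (SVZ), with intervals that reached below 0. Averaged over regions it was 0.15 (SE 0.07, unadjusted p = 0.0459, FDR 0.626). Without the 4 SVZ libraries high in thalamic markers the SVZ value was −0.25, from 1 METH library against 3 saline libraries. Its region means ran from 30.6 ± 4.64 CPM (DG) and 29.9 ± 1.47 (CA) to 26.1 ± 4.92 (SVZ) and 24.6 ± 3.51 (NAc; SD, n = 8), with an FDR over the regions of 0.0246. Without SVZ saline replicate 1 that FDR was 0.00648 and Daglb was called. The test called 28.8% of all genes with all libraries, and the share in that fit is not given here.

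The 2-AG breakdown enzyme, Mgll, ends CB1 signalling at the presynaptic terminal and also acts in astrocytes. Its groups overlapped in every region. In the CA it read 117, 61.8, 74.4 and 91.7 CPM in saline and 78.8, 48.5, 66.4 and 59.6 CPM in METH, with 2 METH libraries below every saline library. The log2 fold change was −0.45 (SE 0.21, unadjusted p = 0.0591, FDR 0.709). In the DG it read 58.3, 106, 55.9 and 60.0 CPM in saline and 75.4, 109, 74.0 and 98.7 CPM in METH. There 1 saline library, replicate 2, lay among the METH libraries, and the log2 fold change was 0.36 (SE 0.23, unadjusted p = 0.163, FDR 0.589). The SVZ value was −0.39 (SE 0.27, FDR 0.979). In the NAc the value was −0.02 (SE 0.26), with METH replicate 3, the library low in striatal markers, at 35.5 CPM against 73.5 to 79.1 CPM in the other 3 METH libraries. Without it the value was 0.19. Mgll was the member whose regions differed least by the test over the 4 regions (FDR 0.284), with means of 66.7 CPM in the NAc, 79.7 in the DG, 74.8 in the CA and 61.0 in the SVZ.

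The anandamide-side enzyme, Napepld, releases N-acylethanolamines from their membrane precursors. In the CA it read 15.3, 9.75, 10.98 and 13.9 CPM in saline and 8.36, 6.39, 9.20 and 6.67 CPM in METH. Every METH library lay below every saline library, a separation found for 1.85% of 14768 CA genes. The means were 12.5 ± 2.58 and 7.65 ± 1.35 CPM (SD, n = 4 each). The log2 fold change was −0.71 (SE 0.18), with an unadjusted p of 0.00377, the lowest of any member for METH against saline within a region, and an FDR of 0.669. In the CA all 6 oligodendrocyte and all 5 pallial markers had lower means in METH, and all 5 astrocyte markers had higher means, and their part in the Napepld level was not tested. Leaving out any 1 CA library kept it between −0.81 and −0.59. Within the 2 runs that held both treatments, METH averaged 7.93 against 10.98 CPM and 7.37 against 13.9 CPM. In the DG it read 9.32, 14.6, 6.93 and 14.2 CPM in saline and 15.99, 13.6, 13.3 and 12.8 CPM in METH, with a log2 fold change of 0.31 (SE 0.24, FDR 0.659). The NAc value was −0.06 (SE 0.17), from saline libraries at 6.79 to 9.76 CPM and METH libraries at 6.11 to 9.39 CPM.

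In the SVZ, Napepld fell into high and low libraries that did not follow treatment. Saline libraries read 50.6, 7.99, 8.09 and 8.13 CPM and METH libraries 7.35, 36.8, 19.4 and 31.5 CPM. The 4 high ones were the 4 with high thalamic markers, which summed to 1506, 1326, 432 and 907 CPM there and to 64.6 to 200.2 CPM in the other 4. All 3 of those markers, Prkcd, Tcf7l2 and Slc17a6, were present in each, and the part of the markers in the Napepld level was not tested. Outside these 4 libraries Napepld stayed between 6.11 and 15.99 CPM. The log2 fold change for METH in the SVZ was 0.35 (SE 0.75, 95% interval −1.37 to 2.07), and without the 4 libraries it was −0.14, from 1 METH library against 3 saline libraries.

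The order of the regions in Napepld depended on the same 4 libraries. With all libraries the SVZ was highest (21.2 ± 16.6 CPM, SD), then the DG (12.6 ± 2.99), CA (10.1 ± 3.21) and NAc (7.81 ± 1.24), with an FDR of 0.00373 over the regions. That call was lost without SVZ saline replicate 1, METH replicate 2 or METH replicate 4 (FDR 0.0139, 0.0136 and 0.0111). NAc minus SVZ was −1.43 on the log2 scale (SE 0.33, FDR 0.00521) and CA minus SVZ −1.11 (SE 0.32, FDR 0.00813), pairs called for 1.33% and 9% of genes. Leaving out the 6 libraries with unlike markers, the regions still differed (FDR 0.000129), but the log2 difference of NAc minus SVZ was −0.04 (FDR 0.933) and that of CA minus SVZ was 0.35 (FDR 0.102). The DG minus SVZ difference turned from −0.75 to 0.78 (FDR 0.00218). Leaving out 1 library ended the call of NAc minus SVZ in 8 cases and that of CA minus SVZ in 11, and without SVZ saline replicate 1 these differences were −0.82 and −0.50. With all libraries NAc minus DG was −0.68 (FDR 0.172) and DG minus CA 0.35 (FDR 0.748). Without DG replicates 1 and 2 of both treatments, NAc minus SVZ and CA minus SVZ were not called (FDR 0.0105 and 0.0147), nor were they with replicate number as a block (FDR 0.0102 and 0.0139).

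A list of 25 further genes of the pathway was examined beside the members, of which 23 passed the filter in the NAc, DG and SVZ and 22 in the CA. The further receptors were low, with medians over the 32 libraries of 0.0718 CPM for Gpr55, 1.04 CPM for the peripheral cannabinoid receptor Cnr2 and 4.74 CPM for the nuclear receptor Ppara. The receptor-binding proteins Cnrip1 and Sgip1 had medians of 62.2 and 147 CPM. For METH, 0 of the list were called in any region, as were 0% of all genes. The edgeR unadjusted p was under 0.05 for 1 gene in the NAc, 4 in the DG, 1 in the CA and 0 in the SVZ. Of all genes, 3.39%, 12.8%, 7.16% and 2.58% had such a p, in the same order. DESeq2 called 1 gene of the list in the DG, Pla2g4e (FDR 0.00267), beside 1.24% of all genes. It called 0 of the list in the other regions, beside 0.0203% (NAc), 0.0684% (CA) and 0.0128% (SVZ) of all genes. The list's median log2 fold change was 0.03, 0.03, −0.05 and −0.09 in the same order, where all genes had the medians given above.

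Genes with the lowest p in a region included Pla2g4e in the NAc, Pla2g4e and Fabp3 in the DG, Cnr2 in the CA and Abhd4 and Fabp7 in the SVZ. Pla2g4e, an N-acyltransferase that makes the precursors used by Napepld, had a log2 fold change of −1.28 in the DG (SE 0.28, unadjusted p = 0.00149, edgeR FDR 0.172). Averaged over regions it was −0.46 (SE 0.15, FDR 0.516), and Gpr18, an orphan receptor, had 0.44 (SE 0.17, FDR 0.555). Fabp3, a fatty acid binding protein, had −0.62 in the DG (SE 0.22, FDR 0.308). Cnr2 in the CA had 0.98 (SE 0.32, FDR 0.669) at a level near 1 CPM. In the NAc, Pla2g4e had −0.24 (SE 0.11). Abhd4 and Fabp7 had 0.35 (SE 0.16) and 0.55 (SE 0.26) in the SVZ.

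Between regions the test called 8 of the 23 list genes, beside 28.8% of all genes, and DESeq2 called 12, beside 36.6%. Cnrip1, whose product binds the tail of CB1, had the lowest FDR of the list, 5.04e-06. Like Cnr1 it had its highest mean in the CA (89.8 ± 7.08 CPM, SD) and its lowest in the SVZ (42.8 ± 8.65 CPM), and the log2 difference between these was 1.07 (SE 0.14). The oxygenase Ptgs2, which can turn endocannabinoids into prostaglandin derivatives, averaged 48.0 ± 31.2 CPM in the DG and 43.2 ± 14.3 in the CA, against 12.7 ± 5.76 in the NAc and 8.81 ± 6.14 in the SVZ. The 2-AG hydrolase Abhd6 was highest in the CA (58.2 ± 5.47 CPM) and lowest in the SVZ (42.5 ± 3.96 CPM). Plcb4, a phospholipase upstream of 2-AG, averaged 185 ± 173 CPM in the SVZ and 28.9 ± 15.6 in the CA, and without the 6 libraries with unlike markers its FDR was 0.157. Fabp7, Fabp5, Gdpd1 and Pla2g4e were also called. Pla2g4e lost its call in 18 of the 32 fits that left out 1 library. It also lost the call in 4 of 9 other alternatives, TMM scaling (FDR 0.0120) among them. With sequencing run as a covariate and the SVZ left out, 6 of the 8 lost the call, all but Cnrip1 and Ptgs2. In the saline libraries alone 1 pair was called for 1 list gene, CA over SVZ for Cnrip1 (FDR 0.00892). That saline pair was called for 126 of 15515 genes.

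Over the 32 libraries, the genes with log2(CPM + 1) profiles most like each member's were found among 16122 genes, as a description, since libraries of a region and run share their source. Cnr1 was most like Aff3 (Pearson r = 0.86), Tmem181 (0.86) and Slc7a4 (0.86). Dagla was most like Suds3 (0.92), Porcn (0.90) and the sodium channel gene Scn8a (0.90). For Daglb the most like was Car4 (0.89), for Mgll they were Snn (0.82), Cap2 (0.82) and Camkk2 (0.81), and for Napepld Cpne9 (0.90), Lef1 (0.90) and Lox (0.89). Among the members themselves, r was highest for Dagla with Daglb (0.60) and with Mgll (0.54), and lowest for Cnr1 with Napepld (−0.48).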

How the data were processed

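RNA-seq of 32 rat brain samples was used, 4 saline and 4 METH per region, grouped by their labels. Per the submitters' notes and the file headers, the authors trimmed reads with cutadapt 2.7, aligned them to rn6 with STAR 2.5.2b and counted read pairs without regard to strand with featureCounts 1.6.3 against Ensembl release 95, dropping mapping quality under 10. The deposited values are raw gene counts. Here, counts were upper-quartile normalised and tested with edgeR 4.0.16 (glmQLFit, glmQLFTest, filterByExpr) over all genes, in 8-sample fits per region, a fit of 16 saline samples and a fit of all 32. DEGs needed FDR under 0.01 and a change over 1.5-fold (2-fold between regions). The authors' RUVr step was tried with 2 and 4 factors, since no number is stated in the sources used here. DESeq2 1.42.0, TMM, no filter, sequencing run as named in the file headers, a block by replicate number and leave-one-out were also tried. The libraries with unlike markers were left out as alternatives chosen after seeing the data. Members, gene lists and tests were chosen with earlier results of these data known. The text names the members, the listed pathway genes called or with the 2 lowest p values in each METH comparison, and the 3 genes most like each member, except for a few genes that are not reported here. Functions were tested on simulated data. Totals of 11094002 to 21869773 reads set the precision, and intervals on reads cover counting error only. Nothing in the sources used here ties each library to a rat, and regions may share rats, so p-values measure the spread between these samples, which may be technical. A joined count matrix of the same samples with fewer genes was not used.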

Additional observations from a re-analysis of the deposited data

Results flagged for a closer look

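Among 40 groups of 4 libraries (5 members, 8 groups), 7 had 1 library far from the others, with a gap to its nearest neighbour over Dixon's 95% critical value as a share of the group's range. Chance alone would pick out about 1 in 20 groups if values were independent and normally distributed. The 40 groups are 5 genes in the same 8 sets of libraries, so the 7 cannot be set against that share. Cnr1 in NAc saline replicate 1 read 906 CPM, against 126 to 197 CPM in the others. SVZ saline replicate 1, with 1506 CPM of thalamic markers, was the library set apart for 3 members, with Dagla at 211 CPM (others 114 to 126), Daglb at 33.1 CPM (others 22.9 to 23.6) and Napepld at 50.6 CPM (others 7.99 to 8.13). Mgll in NAc METH replicate 3 read 35.5 CPM, against 73.5 to 79.1 CPM in the others. In DG saline replicate 2, Mgll read 106 CPM, against 55.9 to 60.0 CPM. Daglb in NAc saline replicate 3 read 19.7 CPM, against 23.1 to 23.5 CPM.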

How the results depend on the processing

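For METH, no member was called in the NAc, CA or SVZ or averaged over regions under any alternative run. In the DG, 4 RUVr factors called 1 member, Cnr1 (0.845% of all genes). For the regional difference of the METH effect, 2 or 4 RUVr factors called 1 member, Dagla (FDR 0.00748 and 0.00321; 0.484% and 2.91% of genes). In saline samples, 2 or 4 RUVr factors called 1 member, Dagla (7.4% and 18.8% of genes). Over all samples the regions called 2 members (28.8% of genes), but 4 with DESeq2 and with 2 or 4 RUVr factors (36.6%, 46.8% and 54.2%). They called 0 with run as a covariate without the SVZ (8.45%) and 1 without DG replicates 1 and 2 (24.3%). Fits leaving out 1 library called 1 to 3 members, and the share of all genes called in those fits is not given here. DG results rest on labels that the library numbers contradict, and with 4 samples a group the widest METH interval ran from −1.37 to 2.07 on the log2 scale (Napepld in the SVZ).

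The sign turned in the NAc without METH replicate 3 for Dagla (0.0738) and Mgll (0.19), and in the SVZ without the 4 libraries high in thalamic markers for Daglb (−0.25) and Napepld (−0.14), where 1 METH library was left. Averaged over regions, Napepld turned from −0.03 to 0.0610 with 2 RUVr factors, 0.0650 with 4 and 0.0146 with the replicate block. CA minus SVZ (0.35) and DG minus SVZ (0.78) turned for Napepld without the 6 libraries with unlike markers. The cause was not tested. Leaving out 1 library gave ranges across 0 for Dagla (−0.17 to 0.0738), Mgll (−0.16 to 0.19) and Napepld (−0.18 to 0.0408) in the NAc, Dagla (−0.37 to 0.11) and Daglb (−0.0485 to 0.20) in the SVZ, and Cnr1 (−0.31 to 0.0454) and Napepld (−0.11 to 0.27) averaged over regions.

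Same-numbered saline and METH libraries were not paired, with correlations from −0.748 to 0.376. Of the 6 pairs of regions in saline, NAc and CA alone had all 4 correlations above 0.1 (0.106 to 0.282), and these libraries also share numbers in the headers, while the other pairs ran from −0.252 to 0.16. In saline samples the block left 0 members and 0% of genes called. The replicate block joins saline and METH libraries of the same number, which were not paired, so it does not model shared rats. It raised the called members over regions from 2 to 3, adding Cnr1 (FDR 0.00984), where 26.7% of all genes were called. It ended the calls of Napepld for NAc minus SVZ (FDR 0.0102) and CA minus SVZ (FDR 0.0139), and changed no other call.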
